A study of Mus musculus with 9 samples.

Results

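The loci described here are Rpa1 (MSTRG.3839) and Pttg1 (MSTRG.3316), 2 of the 50485 rows of a table of testis RNA from mice carrying a protamine 2 gene (Prm2) without its cleaved domain. They were chosen by name from the study's sheet of genes that differ between Prm2-/Δc and WT, so the values that set them apart in these 2 genotypes were known beforehand and are given without a test. RNA came from 3 libraries of 3 mice in each of 3 groups. WT mice carry no edited allele. Prm2+/Δc mice, labelled het, carry 1 allele lacking the cleaved domain (Δc) and 1 intact allele. Prm2-/Δc mice, labelled hom, carry the Δc allele opposite a Prm2 null allele from a separately made line, as sons of Prm2+/Δc females and Prm2+/- males. All groups share a C57BL/6 background. The Δc line was made by CRISPR/Cas9 in B6D2F1, and its founders were then crossed with C57BL/6J over 3 or more generations. The mice were untreated males of 10 to 13 weeks, and whole testes were used after the tunica albuginea was taken off. The edited alleles are inherited and not limited to a cell type, although a germ cell after meiosis carries only 1 Prm2 allele. Testis RNA pools germ cells of all stages with somatic cells. Fewer cells of a type and less RNA per cell cannot be told apart in such RNA.

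RPA1 is the large subunit of replication protein A, the trimer that coats single-stranded DNA during replication and repair. In meiotic prophase it binds the resected ends of programmed double-strand breaks. PTTG1 is securin, the inhibitor of separase (Espl1). The anaphase-promoting complex (APC/C) marks securin for degradation, after which separase cuts the kleisin subunit of cohesin and chromosomes or chromatids separate. Neither gene is a histone or protamine gene, and both are used by dividing somatic cells as well as by germ cells.

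Rpa1 (ENSMUSG00000000751) occupies positions 75298166 to 75348324 of chromosome 11 on GRCm38, minus strand. Of its 5 annotated transcripts 2 are protein coding, and the coding one described here has 18 exons over 2942 bases, 1932 of them coding. Its last exon is 1054 bases long, of which 958 follow the coding part, and ends at 75300350. The other coding transcript ends further downstream, at 75298166. Sequencing of 3′ ends reads the end of a transcript, and which of these ends the reads came from was not tested. Smyd4 starts 108 bases away on the other strand, and the miRNA gene Gm47300 overlaps Rpa1 on the same strand. Pttg1 (ENSMUSG00000020415) lies on the same strand of the same chromosome from 43420250 to 43426251, 31.9 Mb from Rpa1. It has 10 annotated transcripts, 7 of them coding, and the coding one described here has 5 exons over 948 bases, 597 of them coding. Its last exon is only 135 bases long, with 58 bases after the coding part, and no annotated gene overlaps Pttg1. The study's sheets pair each gene with 1 assembled locus, and the table has no row under either Ensembl identifier. Unnamed loci could hold further reads of these genes, which was not tested beyond the neighbouring loci.

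Both genes were low in all Prm2-/Δc libraries, so sequence next to the RefSeq start of each is shown for reference. It is from RefSeq (GRCm38.p6), written 5′ to 3′ on the minus strand, at chr11:75348384-75348432 for Rpa1 and chr11:43425982-43426173 for Pttg1. The Rpa1 stretch is all that lies between its RefSeq start and Smyd4. The Pttg1 stretch lies before the RefSeq start but inside the annotated gene, since other Pttg1 transcripts start as far upstream as 43426251 and splice across it, and part of it is an exon of a noncoding transcript. The stretches are therefore not like regions and are not compared. Capitals mark a CCAAT box (CCAAT) and a GC box (GGGCGG, here on the other strand).
Rpa1: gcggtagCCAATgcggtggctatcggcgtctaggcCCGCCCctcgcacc
Pttg1: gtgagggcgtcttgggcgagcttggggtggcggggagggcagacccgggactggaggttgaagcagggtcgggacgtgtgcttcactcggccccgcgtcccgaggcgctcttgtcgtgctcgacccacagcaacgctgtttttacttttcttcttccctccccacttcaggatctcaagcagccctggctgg
The Rpa1 stretch held 1 of each box in 49 bases, and the Pttg1 stretch held neither in 192 bases. In windows of 300 bases from 250 before to 50 after the RefSeq start, Rpa1 had 2 CCAAT boxes, 4 GC boxes and 1 E-box (CACGTG), and Pttg1 had none of the 3. The Rpa1 window reaches into Smyd4, and the Pttg1 window lies inside Pttg1. Of all 32851 RefSeq windows of this length, 37.4% held a CCAAT box, 35.7% a GC box and 7.2% an E-box. Neither gene's window held a CHR element (TTTGAA, in 17.9% of windows), known from cell cycle genes, or a TATA box (TATAAA, in 13.6%). These matches describe letters only, and no binding was measured.

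The values are estimated reads per locus from 3′ mRNA libraries with 50 bp reads. Normalized counts are these counts divided by DESeq2's size factor of the library. Total counts were between 9070746 and 20320362 per library. The p-values of fold changes set a difference between groups against the spread between mice within groups of 3. A locus was called where edgeR's quasi-likelihood test gave an adjusted p below 0.05 together with a log2 fold change beyond 1 in either direction. By this rule 13 of 17815 loci were called in Prm2+/Δc against WT, 1 of 17637 in Prm2-/Δc against WT and 2 of 17986 (0.0111%) between the mutant groups. Leaving out Prm2-/Δc replicate 3 raised the last 2 counts to 20 and 70. MSTRG.8527 carries no gene name and was taken to be Prm2 by its place in the locus order, which was not checked. It ranged from 100886 to 122024 normalized counts over the WT libraries, from 92847 to 106746 over Prm2+/Δc and from 115288 to 128477 over Prm2-/Δc. If it is Prm2, these values sum over both alleles and do not check the deletion. The tissue could not be checked by markers, since lists for the cell types of the testis had between 0% and 30% of their genes in named rows. The 4 of 5 epididymis markers with a row (Lcn5, Lcn8, Crisp1 and Adam7) had 0 counts in every library, but they stand in Ensembl rows, which hold 0.391% of all counts, and the Sertoli cell genes Amh and Fshr in such rows were at 0 in every library too.

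Rpa1 had 1763, 1558 and 1365 normalized counts in the 3 WT libraries. In the Prm2-/Δc libraries it had 34.8, 37.0 and 21.7. The Prm2+/Δc libraries gave 35.1, 1630 and 1454, in the order of their replicate numbers. Every Prm2-/Δc library thus lay below every WT library, as in 4.32% of the 17637 loci tested, while 1 Prm2+/Δc library lay within the Prm2-/Δc range and the other two within the WT range. The low values were still above the floor, since the deposited counts were 36, 45 and 20 in Prm2-/Δc and 31 in Prm2+/Δc replicate 1, against 1178 to 1664 in WT. No library lay between 37.0 and 1365 normalized counts, a gap of 36.9-fold.

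Pttg1 had 2001, 2603 and 2572 normalized counts in WT. In Prm2-/Δc it had 729, 559 and 870. The Prm2+/Δc libraries gave 2331, 639 and 2320. Again all Prm2-/Δc libraries lay below all WT libraries, and 1 Prm2+/Δc library fell into the Prm2-/Δc range. That library was replicate 2, not replicate 1 as for Rpa1. The gap between the 4 lowest and the 5 highest libraries was 2.30-fold, from 870 to 2001 normalized counts. Pttg1 was thus well expressed in every library, with deposited counts of at least 681.

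**Figure D1:**
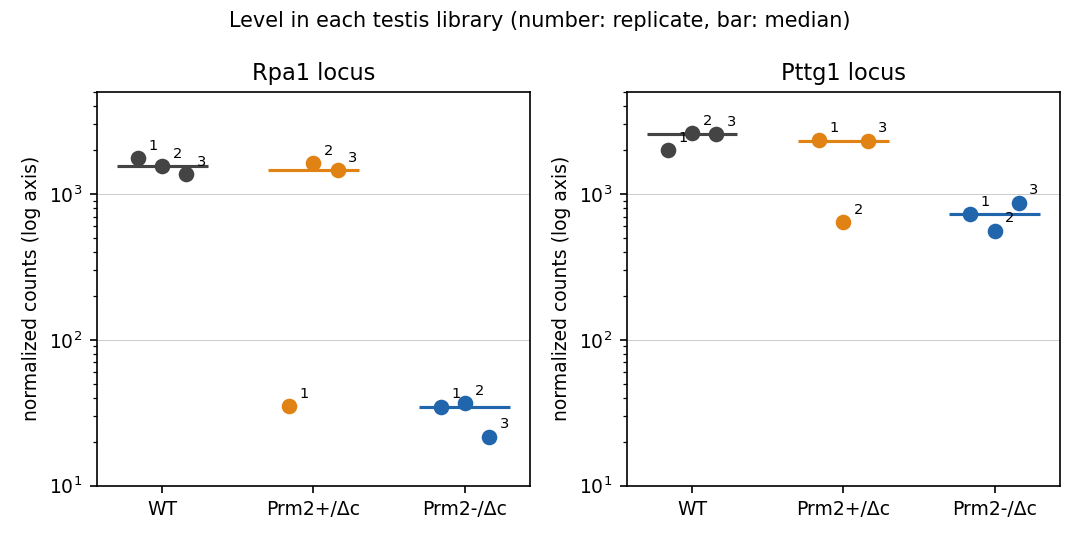
Normalized counts (log axis) of the Rpa1 and Pttg1 loci in the 9 testis libraries, by genotype. Each point is 1 mouse with its replicate number, and bars are group medians. All Prm2-/Δc points lie below all WT points, and the low Prm2+/Δc point is replicate 1 for Rpa1 (35.1) and replicate 2 for Pttg1 (639).

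In Prm2-/Δc the mean Rpa1 level was 31.2 ± 8.24 normalized counts (SD, n = 3) against 1562 ± 199 in WT, 50.1-fold lower. The fitted log2 fold change was -5.64 (SE 0.27). The mean Pttg1 level was 720 ± 156 against 2392 ± 339, or 30.1% of WT, with a log2 fold change of -1.73 (SE 0.21). Both comparisons are the ones the genes were chosen from, and their values are descriptions. Of the loci tested in this comparison 0.00567% were called lower. That share is 1 locus, Rpa1 itself, and Pttg1 was not called. Without Prm2-/Δc replicate 3 the log2 fold changes were -5.44 for Rpa1 and -1.90 for Pttg1.

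Whether 1 Δc allele beside an intact Prm2 allele goes with a change in these genes was tested in Prm2+/Δc against WT, whose Prm2+/Δc libraries took no part in the choice. The WT libraries did, and this comparison shares them with the one above. Rpa1 averaged 1040 ± 874 normalized counts in Prm2+/Δc, 66.6% of WT, with a log2 fold change of -0.59 (SE 1.06, 95% interval -3.16 to 1.98). Pttg1 averaged 1763 ± 974, 73.7% of WT, with a log2 fold change of -0.45 (SE 0.47, 95% interval -1.58 to 0.69). Neither passed the test (edgeR, adjusted p = 0.999 for both). An exact two-sided permutation test gave p = 0.50 for each gene, where 3 against 3 mice cannot give less than 0.10. Of the 17815 loci tested here, 0.073% were called, and neither gene was among them. All Prm2+/Δc libraries lay below all WT libraries at 4.61% of the loci, Rpa1 and Pttg1 not included.

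The Prm2+/Δc means rested on 1 library for each gene. Without replicate 1, the log2 fold change of Rpa1 was -0.02 (SE 0.15). Without replicate 2, it was -1.07 (SE 1.28). For Pttg1 the order was reversed, with -0.04 (SE 0.15) without replicate 2 and -0.70 (SE 0.54) without replicate 1. With its low library left out, each gene's Prm2+/Δc mean was therefore close to WT, and none of these fits passed the test.

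Between the mutant groups, Rpa1 was lower in Prm2-/Δc by a log2 fold change of -5.06 (SE 1.295) and Pttg1 by -1.29 (SE 0.49). These values use the Prm2-/Δc libraries that chose the genes and have no test here. The groups overlapped for both genes, whereas 5.4% of the 17986 loci tested had all Prm2-/Δc libraries below all Prm2+/Δc libraries. Leaving out Prm2+/Δc replicate 1 moved Rpa1 to -5.63 (SE 0.29), and leaving out replicate 2 moved Pttg1 to -1.69 (SE 0.22).

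**Figure D2:**
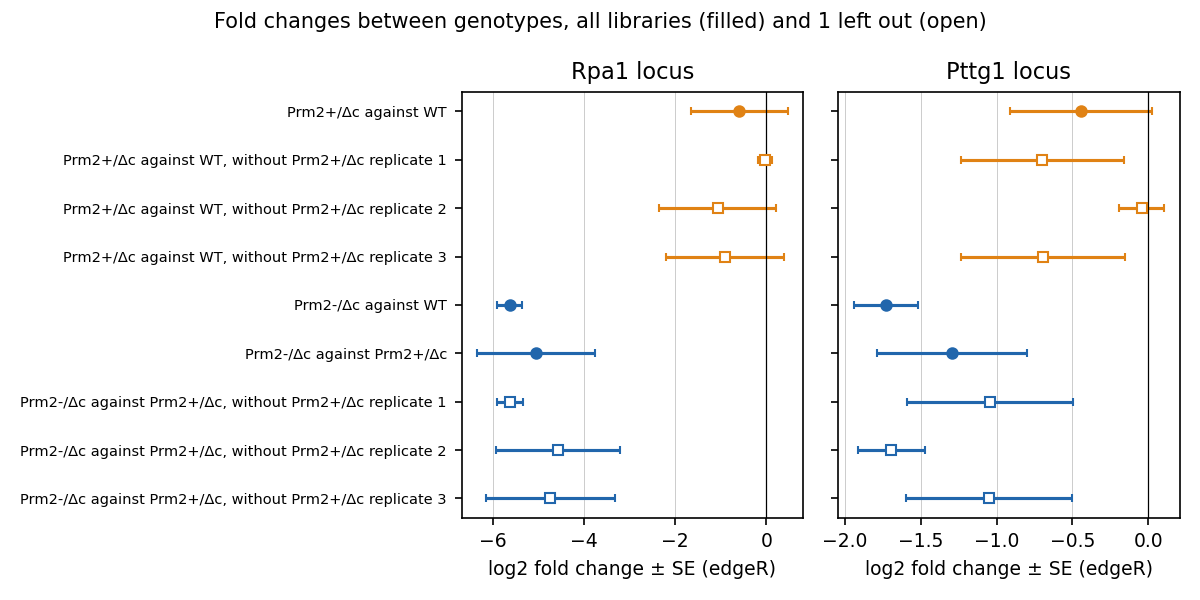
Log2 fold changes from edgeR (points) with their standard errors (bars) for Rpa1 and Pttg1 in the 3 comparisons, with all libraries (filled) and with 1 Prm2+/Δc library left out (open), on separate horizontal scales. Against WT, Rpa1 moves from -0.59 to -0.02 without Prm2+/Δc replicate 1, and Pttg1 from -0.45 to -0.04 without replicate 2.

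A spread as wide as that of Rpa1 among mice of 1 genotype was uncommon but not particular to it. Of 4285 loci with a mean of at least 500 normalized counts, 32 (0.747%) had a range over the Prm2+/Δc libraries at least as wide as the 46.5-fold of Rpa1. For the 3.65-fold of Pttg1 the number was 151 (3.52%). Ranges of at least 4-fold were found in 4.67% of these loci within WT, 3.27% within Prm2+/Δc and 5.65% within Prm2-/Δc. Within WT and within Prm2-/Δc the ranges were narrower, and choosing the genes by their difference between these genotypes favours narrow ranges there. Rpa1 ranged 1.29-fold in WT and 1.70-fold in Prm2-/Δc, and Pttg1 ranged 1.301-fold and 1.56-fold, where the median locus ranged 1.24-fold and 1.35-fold.

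**Figure D3:**
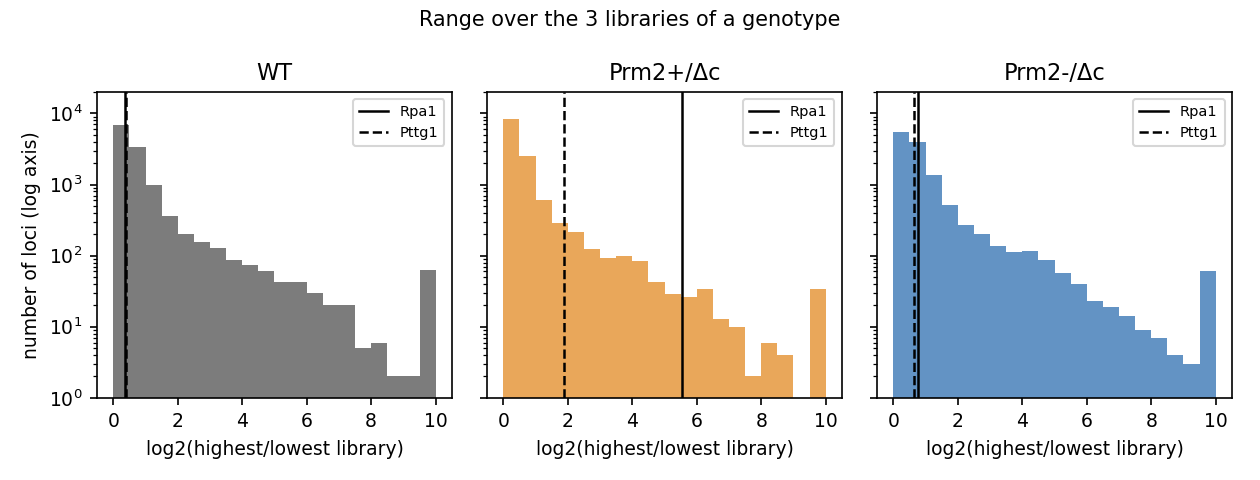
Number of loci (log axis) by the range over the 3 libraries of a genotype, as the log2 ratio of the highest to the lowest library, for 12542 loci with a mean of at least 50 normalized counts. The last bar holds all wider ranges, and vertical lines mark Rpa1 (solid) and Pttg1 (dashed). Rpa1 lies in the far tail in Prm2+/Δc (46.5-fold) and near the bulk of loci in WT (1.29-fold).

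Over all 9 libraries, log2 levels of Rpa1 and Pttg1 had a Pearson correlation of 0.50 and a Spearman correlation of 0.17, given as descriptions. Among the 12541 other loci with a mean of at least 50 normalized counts, the one most like Rpa1 was Pdxdc1 on chromosome 16 (r = 0.93). Its levels were 1414, 1716 and 1088 normalized counts in the WT libraries, 376, 855 and 1636 in Prm2+/Δc, and 438, 445 and 182 in Prm2-/Δc. The other 4 most alike loci carry no gene name and had r between 0.88 and 0.92. The locus that ran most opposite to Rpa1 was Alg11, a mannosyltransferase of N-glycan assembly on chromosome 8 (r = -0.95). It had 8.203 to 24.1 normalized counts in the WT libraries, 101, 14.6 and 18.3 in Prm2+/Δc, and 92.8 to 219 in Prm2-/Δc, so that its high Prm2+/Δc library was the one in which Rpa1 was low. Alg11 was named after its values were seen, and picking it by correlation over these same libraries favours such a match.

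Most like Pttg1 was Glb1, lysosomal beta-galactosidase, on chromosome 9 (r = 0.97). Glb1 had 105, 107 and 135 normalized counts in the WT libraries, 83.7, 6.01 and 79.0 in Prm2+/Δc, and 2.90, 1.64 and 15.2 in Prm2-/Δc. Ilkap, a protein phosphatase gene on chromosome 1, followed (r = 0.95), with 296 to 373 in WT, 316, 147 and 329 in Prm2+/Δc, and 111 to 163 in Prm2-/Δc. In both, the low Prm2+/Δc library was replicate 2, as for Pttg1. Both were picked by their correlation with Pttg1 over these same libraries, which favours such a match. These likenesses rest on 9 libraries and depend on the measure, since with Spearman's correlation 0 of the 5 loci most like Rpa1 and 2 of the 5 most like Pttg1 were again in the top 5.

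The low Rpa1 level was not seen in the summed level of the loci beside it. The 5 assembled loci on each side, numbered in chromosome order, summed to 446 ± 21.9 normalized counts in WT, to 476 ± 27.7 in Prm2+/Δc and to 433 ± 44.4 in Prm2-/Δc (SD, n = 3). Their sum in Prm2+/Δc replicate 1, where Rpa1 was low, was 447. In that library the adjacent loci MSTRG.3838 (26.0) and MSTRG.3840 (22.6) were below their WT ranges of 29.5 to 66.3 and 41.9 to 55.8. MSTRG.3838 was below its WT range in all Prm2+/Δc libraries, at up to 28.3. MSTRG.3837, the largest part of the sum, was at 283 in replicate 1, above its WT range of 205 to 241. Of these 10 loci 6 had a mean of at least 10 normalized counts, and in none of the 6 were all Prm2-/Δc libraries on one side of all WT libraries. The summed level therefore moved by far less than the difference of Rpa1 between these genotypes. Around Pttg1 the 10 loci summed to 1763 ± 204, 1445 ± 145 and 1676 ± 182, and 1517 in Prm2+/Δc replicate 2. The locus right beside Pttg1, MSTRG.3317, had between 1166 and 1810 normalized counts in every library. Of the 4 loci there with a mean of at least 10, only MSTRG.3318 had separate levels, at 65.7 to 84.0 in Prm2-/Δc and 18.1 to 56.9 in WT, where 4.58% of all loci tested had every Prm2-/Δc library above every WT library.

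**Figure D4:**
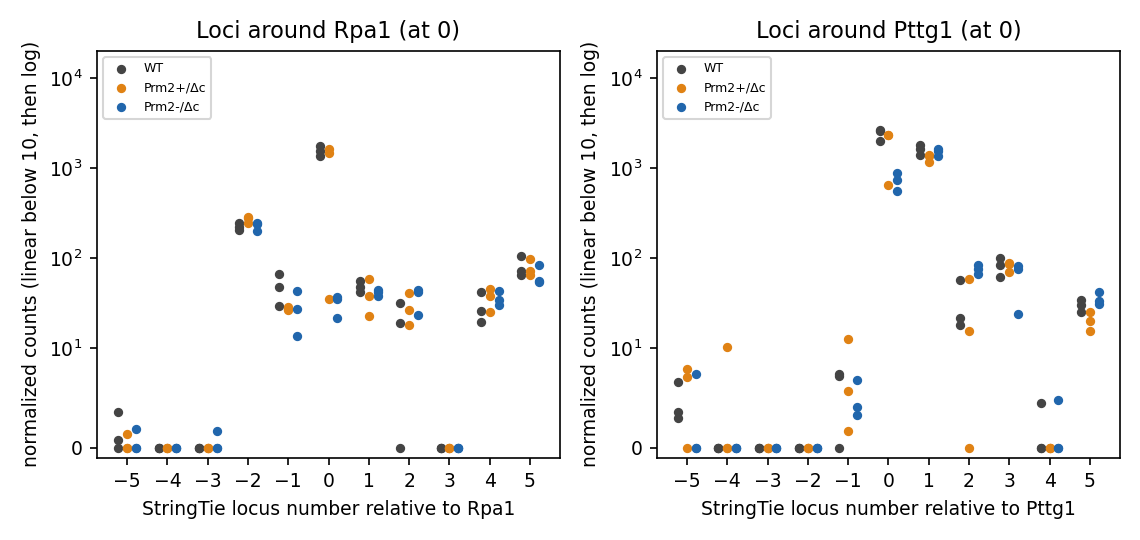
Normalized counts (linear below 10, then log) of the 5 assembled loci on each side of Rpa1 and of Pttg1, which stand at 0, with 1 point per library coloured by genotype. At 0 the Prm2-/Δc points are far below WT for Rpa1 and below WT for Pttg1, while the loci beside them overlap between Prm2-/Δc and WT except MSTRG.3318 at position 2 in the Pttg1 panel.

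Further along chromosome 11, from some loci before Pttg1 to some behind Rpa1, 7 loci have a gene name, Rpa1 and Pttg1 included, and their numbers follow the order of the genes. All 7 names come from the study's sheets of changed genes, so their differences are not independent evidence. Med7, a subunit of the Mediator complex, had 530, 542 and 453 normalized counts in the WT libraries, 440, 466 and 23.3 in Prm2+/Δc, and 15.5, 58.3 and 13.03 in Prm2-/Δc. It resembled Rpa1 and Pttg1 in being low in all Prm2-/Δc libraries and in 1 Prm2+/Δc library, here replicate 3. Rpa1, Pttg1 and Med7 were thus each low in a different Prm2+/Δc mouse. Med7 in Prm2+/Δc replicate 1, at 440, was also just under the lowest WT library. Tlcd1 was lower in all Prm2-/Δc libraries, at 98.6 to 219 against 540 to 673 in WT, and 2 of its 3 Prm2+/Δc libraries (333, 659 and 290) lay below WT too. The lowest of them was replicate 3, as for Med7. Trim17, Rnf167 and Derl2 did not share this pattern. Trim17 was at 3362 to 3510 in the Prm2+/Δc libraries and at 616 in Prm2-/Δc replicate 3, and Derl2 had 1010, 108 and 809 within WT alone.

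**Figure D5:**
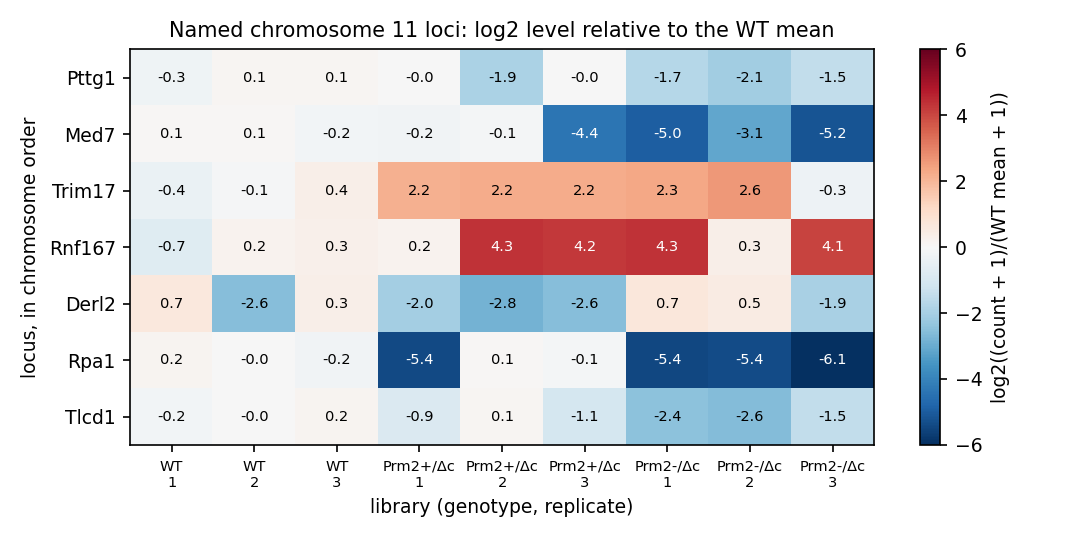
Level of the 7 named loci of chromosome 11 in each library, as the log2 ratio to the WT mean with 1 count added, in chromosome order. Blue is lower and red higher than WT. Rpa1, Pttg1 and Med7 are more than 1 below the WT mean on this log2 scale in all 3 Prm2-/Δc libraries and in 1 Prm2+/Δc library each, a different one for each of these genes. Tlcd1 also passes this mark in all 3 Prm2-/Δc libraries and in Prm2+/Δc replicate 3 (-1.06). That is the library in which Med7 is low (-4.39), and Tlcd1 is at -0.86 in replicate 1.

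The partners of both genes were covered only in part, because most assembled loci of the table carry no gene name. Of a list of 68 genes of meiotic recombination, 5 (7.35%) had a named row, and of 63 genes of chromosome segregation 6 (9.52%). The other subunits of replication protein A (Rpa2 and Rpa3) and separase were not among them and were not analysed here. With 4 genes tested in each list, the lists cannot describe their pathways. Rpa1 itself was chosen from Prm2-/Δc against WT, so its call there is not counted. Of the other genes tested in the 2 lists, edgeR called 0 in that comparison. Its share of 0.00567% of all loci there is Rpa1 alone. The study listed Pttg1, Cdc23 and 4930432K21Rik for that comparison too. In Prm2+/Δc against WT edgeR called 0 genes of either list and 0.073% of all loci. With shares this low, a count of 0 among so few genes says nothing about the lists. Of all loci there, 659 had an unadjusted edgeR p under 0.05 and 83 were called by DESeq2. Most of the tested genes with appreciable counts have a name only because the study's sheets of changed genes list them, so their values are given as descriptions.

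Of the recombination genes, Prdm9, which places meiotic double-strand breaks, had 21.7 to 39.4 normalized counts in WT, 30.5 to 41.2 in Prm2+/Δc and 30.9 to 37.0 in Prm2-/Δc, so all groups overlapped. M1ap, needed for meiotic progression in males, had 709, 695 and 304 in WT, 110, 154 and 170 in Prm2+/Δc, and 157, 527 and 394 in Prm2-/Δc. It is named because it was listed for Prm2+/Δc against WT, so its low Prm2+/Δc values are no finding. 4930432K21Rik, a partner of the BRCA2 complex in meiosis, had at most 23.0 in every WT and Prm2+/Δc library, and 16.4, 1210 and 835 in Prm2-/Δc. It was listed for Prm2-/Δc against WT, and only 2 of its 3 Prm2-/Δc libraries were above the WT range.

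Of the segregation genes, Cdc23, a subunit of the APC/C that acts on securin, had 741, 733 and 70.5 normalized counts in the WT libraries, 679, 78.1 and 585 in Prm2+/Δc, and 79.2, 78.0 and 73.9 in Prm2-/Δc. Like Pttg1 it was low in Prm2+/Δc replicate 2, but it was also low in WT replicate 3, where Pttg1 was high. Itgb3bp, a centromere protein gene, had 102 to 128 in WT, 926, 740 and 159 in Prm2+/Δc, and 102, 1060 and 871 in Prm2-/Δc. Ccnb3, a cyclin of meiotic prophase, was at 27.1 or less in every library. Cdc23 was listed for Prm2-/Δc against WT and Itgb3bp for Prm2+/Δc against WT, so those differences are no finding either.

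Markers of other cell types are given as values where they have a row, since no list is covered well enough to be read as a whole. Spermatogonial markers Zbtb16, Kit and Sall4 summed to 117 to 156 normalized counts in WT, 97.0 to 139 in Prm2+/Δc and 79.7 to 117 in Prm2-/Δc, from 3 of the 10 genes of their list. Of the red blood cell markers, Hbb-bs, a hemoglobin gene listed by the study for Prm2+/Δc against WT, had 381 to 578 in WT, 783 to 1415 in Prm2+/Δc and 567 to 1137 in Prm2-/Δc. Its highest level was in Prm2+/Δc replicate 3, in which Rpa1 and Pttg1 were both within the WT range. Slc4a1, an anion exchanger of red blood cells, was at 13.5 or less in every library and had its highest mean in WT. Lhcgr, a Leydig cell receptor, had 8.98 to 26.5 in WT, 6.34 to 14.7 in Prm2+/Δc and 11.6 to 19.6 in Prm2-/Δc. The myoid cell gene Myl9, also listed for Prm2+/Δc against WT, had 572, 504 and 6.56 in WT, 4.52 to 11.3 in Prm2+/Δc, and 675, 11.5 and 405 in Prm2-/Δc. The part of cell composition in the results was not tested.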

How the data were processed

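Testis RNA of 9 mice was sequenced as QuantSeq 3′ mRNA libraries. The authors aligned the 50 bp reads to GRCm38 (HISAT2 2.1), then ran StringTie 1.3.3 with gene models of Ensembl release 89 to build and quantify loci. The deposited values are estimated counts (expected counts) per locus, which StringTie's preDE script derives from coverage and rounds to whole numbers. They were used as deposited. The read length given to that script is not given in the sources used here, and it scales all libraries alike. How reads from near-identical copies were shared between loci is not given either.

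The Rpa1 and Pttg1 rows, and names for 150 of the 25503 StringTie loci, come from the study's sheets of changed genes. The members, the gene lists, the rule for named genes and the tests were chosen with earlier results of these data known. Named genes are the members, list genes with a named row, the 5 loci most like each member (Pearson correlation of log2(normalized count + 1)), 5 neighbours on each side, and the named chromosome 11 loci between locus numbers 3300 and 3950. A marker list was to be read as a whole only with 80% of its genes in named rows, and single markers are given as values.

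Groups were compared in pairs with edgeR 4.0.16 (glmQLFit and glmQLFTest, TMM, filterByExpr, R 4.3.3). P-values were adjusted by Benjamini-Hochberg over all loci tested. The standard error of a fold change is its size on the log2 scale over the square root of F. Size factors for normalized counts came from DESeq2 1.42.0. Alternatives were DESeq2's Wald test or size factors, library totals, other filters on low counts (at least 1 count, or a mean of at least 10), a robust dispersion, one fit of all 9 libraries, the replicate block, and each library left out. No libraries were pooled, and all 36 pairs of libraries differed by more than sampling noise, with a lowest chi-square per locus of 28.6. Counts are reads, not molecules. Sequences and positions came from RefSeq (GRCm38.p6) and GENCODE M21 on the same build. Strand handling in the counting was not stated.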

Additional observations from a re-analysis of the deposited data

How the results depend on the processing

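Under all 14 alternatives the log2 fold changes of Rpa1 and Pttg1 kept a negative sign in all 3 comparisons. Where Prm2-/Δc takes part this adds no support, since its libraries chose the genes. In Prm2+/Δc against WT some fold changes were close to no change, and 0 of 14 passed the threshold for either gene. There, adjusted p was at least 0.966 for Rpa1 and at least 0.929 for Pttg1 (edgeR or DESeq2). With 1 library left out, log2 fold changes in Prm2+/Δc against WT ran from -1.07 to -0.02 for Rpa1 and from -0.70 to -0.04 for Pttg1. In Prm2-/Δc against WT they ran from -5.78 to -5.44 and from -1.90 to -1.57, and between the mutant groups from -5.63 to -4.58 and from -1.69 to -1.04. The libraries with the same replicate number did not deviate together, with correlations from -0.23 to 0.07 over 9 pairs. Pairs with other numbers had -0.10 to 0.16 over 18 pairs. The numbers are used here as sample names, and whether they mark a batch is not known. With the replicate number as a block, Prm2+/Δc against WT gave -1.30 for Rpa1 and -0.63 for Pttg1, Prm2-/Δc against WT gave -5.66 and -1.74, Prm2-/Δc against Prm2+/Δc gave -4.27 and -1.11, and the calls fell to 3, 0 and 0 loci in these 3 comparisons. Counts of called loci over the whole table moved more than the members, from 13, 1 and 2 to 83, 69 and 108 with DESeq2 and to 5, 7 and 4 with all 9 libraries in one fit. Keeping loci with at least 1 count gave 6 calls between the mutant groups. With 1 library left out the calls ran from 12 to 37, from 0 to 20 and from 0 to 70, and the cause was not tested. The highest counts came without WT replicate 3 (37) and without Prm2-/Δc replicate 3 (20 and 70), and the counts of 0 without WT replicate 1 or Prm2-/Δc replicate 1 against WT, and without Prm2+/Δc replicate 3 between the mutant groups. Of the 5 loci most like Rpa1 and Pttg1, 3 and 4 remained when loci down to a mean of 10 normalized counts were considered. With 3 mice per group, a permutation test cannot go below 0.10, and Rpa1 with 20 to 45 deposited counts in its low libraries is measured less finely there than in WT.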
